A study of Mus musculus with 12 samples.

Results

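Stem and progenitor transcription factors are the DNA-binding proteins, and their bridging partner Lmo2, that keep blood-forming cells immature and direct their first lineage choices. The genes Gata2, Meis1, Hlf, Mecom, Runx1, Tal1, Lmo2, Myb, Erg and Gfi1 were taken by name from a table of 38924 entries, and 9 of the 10 had a usable row. RNA was sequenced in mouse haematopoietic stem and progenitor cells from the marrow of male C57BL/6 donors 4 to 5 weeks old, kept by removing cells with the lineage proteins CD45R, CD11b, CD3e, Ly-6G or TER119. The naive group held 6 libraries (replicates 1, 2, 3, 7, 8 and 9) of cells that received no treatment. The brain-recovered group held 6 libraries (replicates 4, 5, 6, 10, 11 and 12) of cells that were injected intravenously 24 h after a stroke model (cerebral ischaemia with reperfusion) and taken out of the brain 24 h later. The labels do not say how injected cells were told from the recipient's own cells. Nor do they state whether replicates were separate animals, so p-values measure only the spread between these libraries. In limma that spread was taken from entries of like abundance.

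In blood formation these factors act in groups on shared enhancers. Gata2, Runx1, Tal1, Lmo2 and Erg, with Fli1 and Lyl1, form a set that binds regulatory DNA together in progenitors, and Lmo2 holds Tal1, a GATA factor and Ldb1 in a single complex without touching DNA itself. Meis1, Hlf and Mecom are best known for the most immature stem cells, Myb for dividing progenitors, and Gfi1 for restraining stem cell division and for the granulocyte path. Such genes are usually transcribed at modest levels compared with the granule or globin genes that they control.

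The label of each row was set against the gene length that its values imply, because labels and values are displaced in stretches of the table. Hlf (6681 bases), Tal1 (4379 bases) and Erg (3466 bases) had exactly the exon length of the gene in GENCODE M21. Gata2, Meis1, Mecom, Runx1, Myb and Gfi1 had another length. In that order, their values implied 3351, 9475, 10579, 7368, 3420 and 3246 bases. The exon lengths were 5398, 10532, 12427, 12025, 8933 and 3187 bases. Each lay within 2 places of a row of matching length on both sides in alphabetical order. The labels of these factors therefore rest on neighbouring rows and are not borne out by their own length. The row with the symbol Lmo2 carried the gene ID of Gm13261, and its values fitted that gene's length of 1020 bases, so it was left out. The row with the gene ID of Lmo2 (chromosome 2, 103957986 to 103981878, 2166 bases) was filed under the symbol of another gene. It held 0.305 in naive replicate 9 and 0.831 in brain-recovered replicate 5, from 1 and 2 reads, and was listed at 0 in the other 10 libraries. Values are called RPKM here, meaning reads per length of gene times a factor of the library. In strict RPKM that factor falls as the reads of a library rise, and here it did not. It was 986 in naive replicate 3, with 639328 reads, and 1150 in brain-recovered replicate 10, with 13337969 reads.

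The reads behind the table numbered 639328 to 2294390 in the naive and 1034162 to 13337969 in the brain-recovered libraries. Fewer than 10000 entries were above 0 in 4 libraries, naive replicates 1, 2 and 3 and brain-recovered replicate 12, against 12066 to 23184 in the other 8. These 4 are called sparse libraries below. Of the progenitor marker genes Cd34, Cd48, Flt3 and Mpo, Cd34 did not exceed 23.7 in any library. The summed value of these 4 was 15.6 to 52.5 in the naive and 0.231 to 7701 in the brain-recovered libraries, and Mpo, the only one to exceed the olfactory receptor level described below, did so only in brain-recovered libraries. Of the highest sum, in brain-recovered replicate 6, 7677 came from Mpo. The other 3 did not share this rise. Cd34, Flt3 and Cd48 reached 23.7, 52.1 and 21.4 in naive libraries and 3.17, 15.5 and 21.9 in brain-recovered libraries.

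Transcription factor values above 0 mostly lay near or below the median of the entries above 0 of their library, in both groups. Of 108 values (9 genes in 12 libraries), 81 were above 0, with a median of 8.83 and quartiles of 5.59 and 12.2, and the median number of reads behind a value was 43. The median over all entries above 0 was 10.8 to 12.6 in each library, and 77 of the 81 values were below 3 times the median of their library. That limit is a loose one, since most entries lie below it. In brain-recovered replicate 6 a value of 2.65 times the median lay at percentile 83.8. In these bulk samples, fewer cells of a type and less RNA per cell cannot be told apart. In the sparse libraries 21 of 36 values were listed at 0. In the other 8 libraries 6 of 72 were, and 5 of those 6 belonged to brain-recovered replicate 10. A 0 is given only as listed, because Polr2a, the large subunit of RNA polymerase II, was itself listed at 0 in 3 naive libraries. The cytoskeletal actin gene Actb was at 6.67 to 128 in naive and 61.4 to 39162 in brain-recovered libraries. Ppia did not share this rise, with at most 31.6 in naive and 28.0 in brain-recovered libraries, and Hprt reached 3.58 and 18.6. Zeros were listed in both groups, for Hprt in 4 naive and 2 brain-recovered libraries and for Ppia in 3 and 1. All of these genes were picked out after their values were seen, and the part of these differences in the results below was not tested.

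Olfactory receptor genes, which blood cells are not known to use, give a level for comparison that was chosen after the values were seen. The median of 69 such genes, taken over those above 0, was 11.1 to 114 in the 12 libraries, and that of the transcription factors was 2.86 to 24.1. In naive replicates 1, 2 and 3 and brain-recovered replicate 12 these medians rested on 7, 4, 6 and 3 olfactory receptor genes. They rested on 7, 4, 2 and 2 factors there. The share of genes above 0 was higher among the factors in every library, for example 9 of 9 against 34 of 69 in naive replicate 8. Gene length was not matched between the factors and the olfactory receptor genes. Its part in these medians and shares was not tested. Only 3 of the 108 transcription factor values exceeded the highest olfactory receptor value of their own library. They were Gfi1 in brain-recovered replicate 10, where 3.3% of 18698 labelled entries exceeded that level, and Myb and Runx1 in brain-recovered replicate 11, where 1.85% did. The labels of these 3 rows rest on neighbouring rows, not on their own length. No naive library held such a value, where 1.41%, 0.818%, 0.246%, 0.872%, 0.535% and 0.38% of labelled entries exceeded the level in replicates 1, 2, 3, 7, 8 and 9. Brain-recovered replicates 4, 5, 6 and 12 held none either, with 1.81%, 4.78%, 4.21% and 0.187%. No factor exceeded the level in the naive libraries and in 4 of the 6 brain-recovered libraries. At most 4.78% of labelled entries did so in any library, so this does not set the factors apart from other genes.

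**Figure D1:**
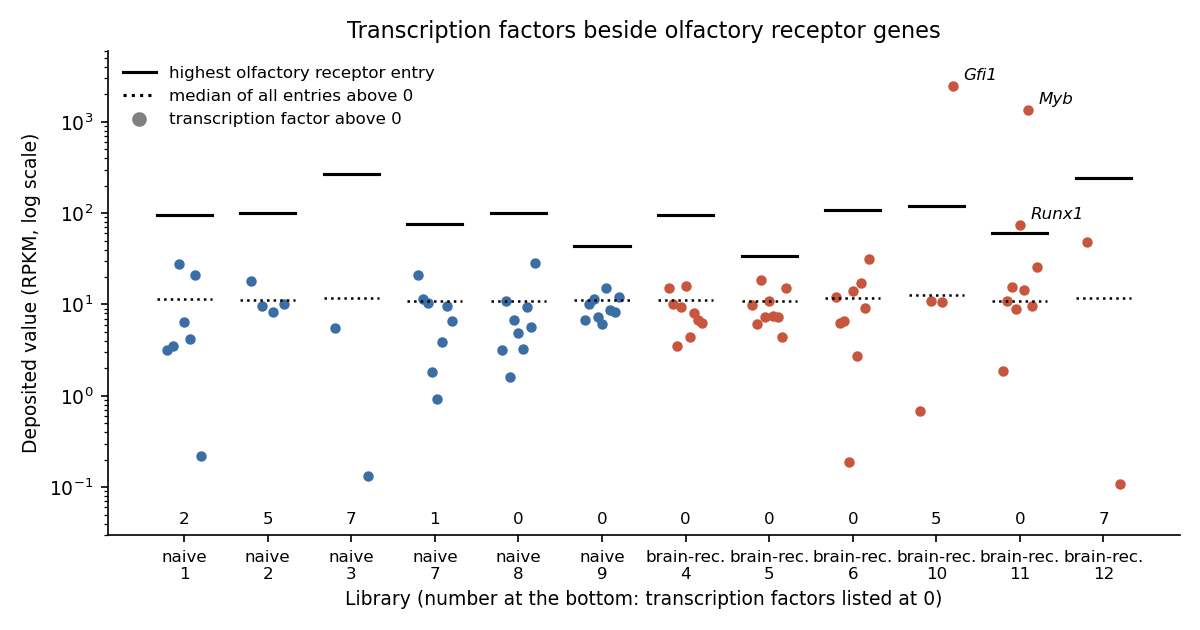
Values of the 9 transcription factors above 0 (points, RPKM, log scale) in each library, beside the highest of 69 olfactory receptor entries (solid line) and the median of all entries above 0 (dotted line), with the number of factors listed at 0 below. Gfi1 in brain-recovered replicate 10 and Myb and Runx1 in replicate 11 lie above the solid line, and the remaining points lie below it.

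Gata2 encodes a zinc finger factor needed to maintain stem cells (ENSMUSG00000015053, chromosome 6, 88193891 to 88207032 in GRCm38). Its values were 3.19, 18.0, 5.59, 0, 3.20 and 6.69 in naive replicates 1, 2, 3, 7, 8 and 9. They were 15.2, 9.94, 11.95, 0, 1.86 and 48.1 in brain-recovered replicates 4, 5, 6, 10, 11 and 12. The highest value belonged to the sparse replicate 12, where it rested on 204 reads and lay at percentile 78.3 of the entries above 0. Each group held a library listed at 0, and the groups overlapped.

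Runx1 encodes the DNA-binding subunit of core binding factor (ENSMUSG00000022952, chromosome 16, 92601466 to 92826149). It was the factor most often above 0, in 11 of 12 libraries. The naive values were 6.39, 8.31, 0.134, 1.81, 4.85 and 6.18 in replicates 1, 2, 3, 7, 8 and 9. The brain-recovered values were 15.8, 10.99, 14.1, 0, 74.6 and 0.107 in replicates 4, 5, 6, 10, 11 and 12. Thus 4 brain-recovered libraries exceeded every naive library, whereas replicates 10 and 12 lay below all of them. The 0.134 of naive replicate 3 and the 0.107 of replicate 12 rested on 1 read each. Their order therefore carries no weight, and both count among the 11 libraries above 0. The value of replicate 11 rested on 530 reads and lay at percentile 98.3 of its library. Cbfb, the other subunit of core binding factor, showed its highest value in a different library, 8738 in replicate 10, where Runx1 was listed at 0.

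Tal1 encodes a basic helix-loop-helix factor that pairs with E proteins (ENSMUSG00000028717, chromosome 4, 115056426 to 115071755). Its naive values ran from 0 to 15.1 with a median of 2.09, and its brain-recovered values from 0 to 14.5 with a median of 3.57. The highest naive value was in replicate 9 and the highest brain-recovered value in replicate 11, so the tops of both groups nearly coincided. Tcf3, the E protein gene, was at 559 in that same replicate 11 and at most 14.5 elsewhere, a gene picked out after its values were seen.

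Erg encodes an ETS-family factor of stem cells that endothelial cells also use (ENSMUSG00000040732, chromosome 16, 95359169 to 95586593). It was listed at 0 in all 4 sparse libraries and in brain-recovered replicate 10. In the 7 remaining libraries it stood at 9.64, 5.67 and 8.19 in naive replicates 7, 8 and 9, and at 6.74, 4.41, 9.24 and 9.58 in brain-recovered replicates 4, 5, 6 and 11. Naive and brain-recovered libraries were interleaved in this narrow range. Among 8 endothelial markers with a usable label, the summed value was 50.8 to 269 in the naive and 61.4 to 1535 in the brain-recovered libraries. The highest sum was in replicate 6, where Erg was at 9.24. Of that sum 1309 came from Cdh5 and 129 from Esam, and each of the rest was at most 45.3.

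Meis1 encodes a homeodomain partner of Hox proteins (ENSMUSG00000020160, chromosome 11, 18879817 to 19018985). Its values were 3.54, 9.65, 0, 20.9, 10.9 and 10.2 in naive replicates 1, 2, 3, 7, 8 and 9, and 10.1, 6.17, 6.34, 0, 10.8 and 0 in brain-recovered replicates 4, 5, 6, 10, 11 and 12. Meis1 was the only factor with a lower mean log2 value in the brain-recovered group. Naive replicates 7 and 8 exceeded every brain-recovered library, and the groups otherwise overlapped.

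Hlf encodes a leucine zipper factor that marks immature stem cells (ENSMUSG00000003949, chromosome 11, 90336536 to 90390895). The naive values ran from 0 to 27.8 with a median of 6.53, highest in the sparse replicate 1. The brain-recovered values ran from 0 to 18.7 with a median of 5.04, highest in replicate 5. Mecom encodes the zinc finger factor Evi1 of long-term stem cells (ENSMUSG00000027684, chromosome 3, 29951296 to 30548008). It was listed at 0 in all 4 sparse libraries and at 0.189, from 1 read, in brain-recovered replicate 6. In the other 7 libraries it lay within a narrow band, 6.75 to 10.5 in naive and 7.23 to 10.98 in brain-recovered cells.

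Myb encodes a factor of dividing progenitors (ENSMUSG00000019982, chromosome 10, 21124935 to 21160984). Its values were 21.1, 0, 0, 3.91, 9.40 and 8.68 in naive replicates 1, 2, 3, 7, 8 and 9. They were 8.03, 7.37, 17.0, 10.8, 1335 and 0 in brain-recovered replicates 4, 5, 6, 10, 11 and 12. A single library, replicate 11, stood apart with 4401 reads, at percentile 99.7 of its entries above 0 and 121 times their median. Every other brain-recovered library lay within or below the naive range.

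Gfi1 encodes a zinc finger repressor (ENSMUSG00000029275, chromosome 5, 107716657 to 107726036). The naive values were 0.22, 10.0, 0, 6.59, 28.6 and 12.2 in replicates 1, 2, 3, 7, 8 and 9. The brain-recovered values were 6.35, 15.0, 31.5, 2451, 25.9 and 0 in replicates 4, 5, 6, 10, 11 and 12. Replicate 10 held 6919 reads, 195 times the median of its entries above 0, in the same library in which Gata2, Meis1, Runx1, Tal1 and Erg were listed at 0. Replicate 6 lay just above the highest naive value, and the remaining 4 lay within the naive range.

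**Figure D2:**
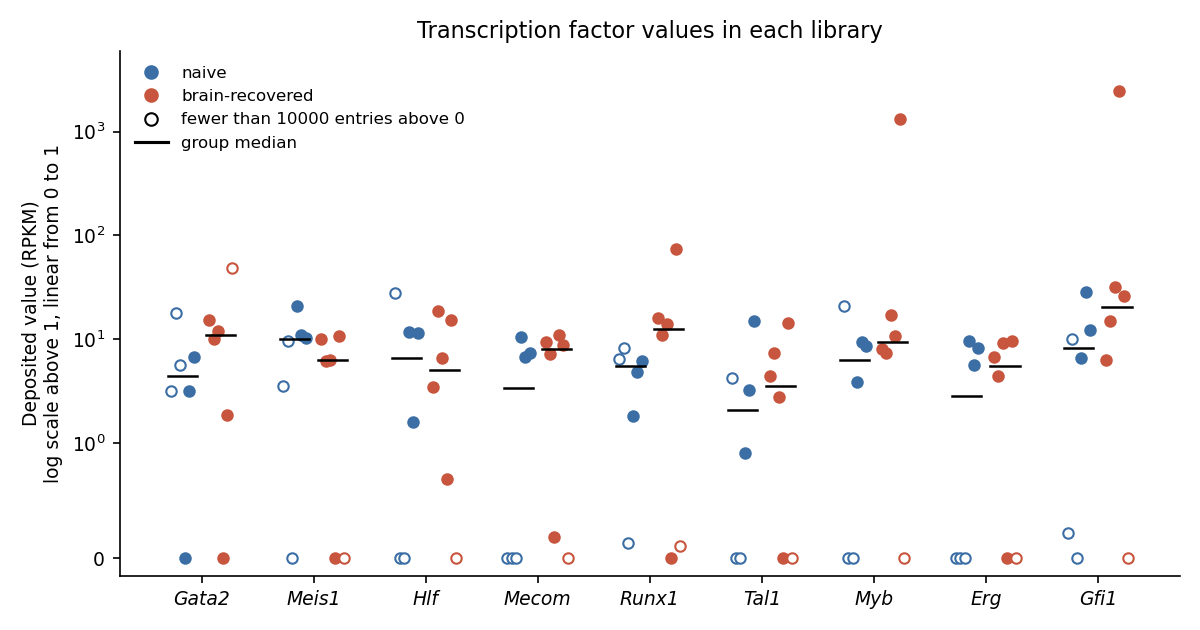
RPKM of the 9 transcription factors in each library (points, log scale above 1 and linear from 0 to 1), with open points for the 4 sparse libraries and lines at the group medians. Most points lie between 1 and 30 in both groups, and Myb at 1335 and Gfi1 at 2451 stand apart in 1 brain-recovered library each.

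Ordered by the median over all 12 libraries, the factors ran from Gfi1 (11.1) through Myb (8.36), Meis1 (7.996), Mecom (6.99), Runx1 (6.28), Gata2 (6.14), Hlf (5.04) and Erg (5.04) to Tal1 (3.003). Each was listed at 0 in at least 1 library, so the ranges of neighbours in this order overlapped throughout.

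In none of the 9 factors did limma's test separate brain-recovered from naive cells. Each SE in limma is the spread between libraries of entries of like abundance, not the factor's own spread. Gfi1 had the largest difference of mean log2(RPKM + 1), 2.10 ± 1.32 higher in brain-recovered cells (SE, 6 libraries a group, adjusted p = 0.914 in limma). Myb came next with 1.82 ± 1.28 (SE, adjusted p = 0.954 in limma). Those of Runx1, Gata2, Mecom, Erg, Tal1 and Hlf were 0.80 ± 1.24, 0.71 ± 1.25, 0.67 ± 1.13, 0.47 ± 1.09, 0.32 ± 1.07 and 0.11 ± 1.21, and Meis1 differed by -0.73 ± 1.23 (SE, limma adjusted p from 0.986 to 1.000 for these 7). The difference was positive in 8 and negative in 1 of the 9, and 5 of the 8 turned negative under scaling to library totals. The median was 0.67, and that over all 17689 entries tested was 0.64. The log2(RPKM + 1) scale understates the change of genes with low values.

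Of the 9 factors, 0 passed the threshold of 0.05 in limma with Benjamini-Hochberg adjustment, in a test that called 0.367% of all entries, all of them higher in brain-recovered cells. At an unadjusted p below 0.05 the count was also 0 of 9, where 6.25% of all entries passed. In the exact two-sided permutation test over the 924 assignments of the 12 libraries, p ran from 0.251 for Gfi1 to 0.922 for Hlf. The groups overlapped in 9 of 9 factors, and they did not overlap in 0.17% of all entries tested. With SE between 1.07 and 1.32 on the log2 scale, differences of the sizes seen here could not be separated from 0 with 6 libraries per group. In data simulated for this comparison over 17689 entries, 31% of changes of 4 on the log2 scale and 99% of changes of 8 were recovered, so a test that misses the threshold does not show that a factor was alike in both groups.

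**Figure D3:**
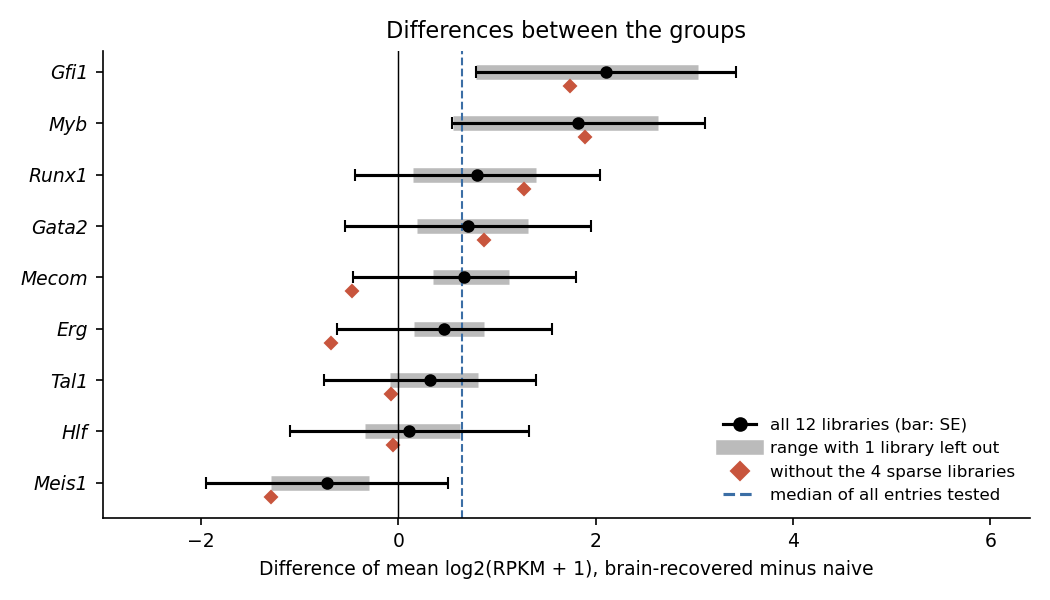
Differences of mean log2(RPKM + 1), brain-recovered minus naive, for the 9 factors (points, bars are SE), with the range when 1 library was left out (grey) and the value without the 4 sparse libraries (diamonds). All SE bars but those of Gfi1 and Myb cross 0, and the median of all 17689 entries tested (dashed line) is 0.64.

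The sparse libraries, 3 naive and 1 brain-recovered, were unevenly spread over the groups. Without them the median difference of the 9 factors moved from 0.67 to -0.05, beside a median over all entries of -0.03, and Mecom, Erg, Tal1 and Hlf changed to a lower mean in brain-recovered cells (-0.47, -0.69, -0.07 and -0.05). Meis1 then differed by -1.29 ± 0.95, Gfi1 by 1.74 ± 1.65 and Myb by 1.89 ± 1.54 (SE, limma adjusted p = 0.968 for all 3). Without brain-recovered replicate 10 the Gfi1 difference was 0.78, and without replicate 11 that of Myb was 0.56. In libraries 1 to 6 alone, in which all 3 naive libraries are sparse, Erg passed (2.92, limma adjusted p = 0.00261), as did 37.8% of all entries in the higher direction. In libraries 7 to 12 alone Erg differed by -1.98 (limma adjusted p = 0.820), and Meis1 went from 1.201 in libraries 1 to 6 to -2.65 in libraries 7 to 12. The median of the factors was 1.72 over the 8 tested in libraries 1 to 6 and -0.88 over the 9 in libraries 7 to 12, beside 2.42 and -1.09 over all entries.

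Other blood transcription factors were described the same way. Of 46 genes in 3 further lists, 37 had a usable label, 5 were listed at 0 in all libraries and 34 were tested. None of the 34 passed in limma or in the exact permutation test after adjustment over all entries. In limma, 5 of 34 had an unadjusted p under 0.05, all higher in brain-recovered cells, where 6.08% of all entries were higher and 0.175% lower at that level. In the exact permutation test 6 of 34 had an unadjusted p under 0.05, beside 4.36% of all entries, and 5 of these were higher and 1, Ebf1, was lower (-2.01). The median difference was 0.76 over 11 partners and cofactors, 0.60 over 14 lineage factors and 1.498 over 9 other regulators of stem cell number and cycling, beside 0.64 over all entries.

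Fli1, the ETS factor of the shared set, differed by -0.00 ± 1.22 between groups (SE, limma adjusted p = 1.000), with 48.7 in naive replicate 1 and at most 12.4 elsewhere. Lyl1, the paralogue of Tal1 in that set, was listed at 0 in all 12 libraries, which leaves its row without a length to check. Cebpb, a leucine zipper factor of myeloid cells, had the largest difference of all the lists, 4.83 ± 1.35 (SE, 6 libraries a group, adjusted p = 0.0819 in limma). The naive values ran from 0 to 13.1. The brain-recovered values were 13.7, 108, 988, 1244, 215 and 0 in replicates 4, 5, 6, 10, 11 and 12, so 5 of 6 exceeded every naive library. Cebpb passed in 3 alternatives in limma, without brain-recovered replicate 12 (6.12, adjusted p = 0.00105), without the variance trend (4.83, adjusted p = 0.0148) and in libraries 1 to 6 alone (6.68, adjusted p = 0.0201), which called 226, 115 and 6011 entries in all. It did not pass in the others, with an adjusted p of 0.968 without the sparse libraries, 0.856 with a pseudocount of 10 and 1.000 with library totals in limma, and 0.973 in the exact permutation test.

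Gfi1b, the paralogue of Gfi1 in red cell and platelet precursors, differed by 3.09 ± 1.23 (SE, limma adjusted p = 0.553), with 133 in brain-recovered replicate 12 and at most 28.3 elsewhere. Tcf4, an E protein gene that brain cells also use, and Cbfb differed by 2.85 ± 1.31 and 2.61 ± 1.31 (SE, limma adjusted p = 0.693 and 0.780). Tcf4 was at 3655 in replicate 6 and 332 in replicate 11, against 0 to 23.0 in naive cells. Egr1, an immediate early gene that restrains stem cell division, and the homeobox gene Hoxb4 differed by 2.15 ± 1.26 and 1.81 ± 1.08 (SE, limma adjusted p = 0.901 and 0.906). Above the highest olfactory receptor value of their library, 8 of the 37 genes stood in at least 1 brain-recovered library and 0 in a naive library, beside 12.2% and 3.63% of all labelled entries. Picked out after their values were seen, Id2 reached 21006 and Cebpe 1821 in replicate 10, the library of the high Gfi1 value.

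**Figure D4:**
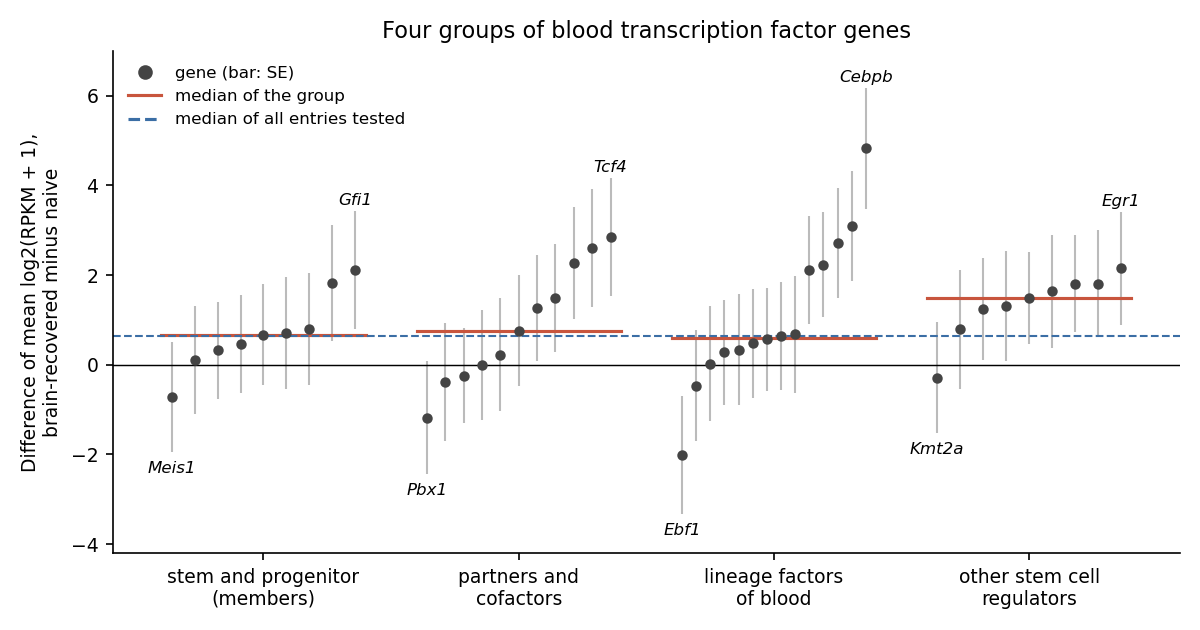
Differences of mean log2(RPKM + 1), brain-recovered minus naive, for the 9 stem and progenitor factors and the 34 tested genes of 3 further lists (points, bars are SE), with the median of each group (red) and of all 17689 entries (dashed). Cebpb at 4.83 is the highest point and Ebf1 at -2.01 the lowest.

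Markers of other cell types were high in some of the same libraries. In brain-recovered replicate 10, with the high Gfi1 value, the summed value of 8 microglia and macrophage markers was 21248, against 0 to 185 in naive libraries, and Mpo was at 4808. In replicate 11, with the high Myb and Runx1 values, Mpo was at 1318, the summed value of 10 oligodendrocyte markers was 346, against 16.6 to 111 in naive libraries, and that of the microglia and macrophage markers was 77.1. The summed value of 6 mast cell and basophil markers, cells that depend on Gata2, was 120 in replicate 12, where Gata2 was highest, with 119 of it from Mcpt4. That sum was higher, 161, in replicate 4, where Gata2 was at 15.2, and naive libraries held up to 82.6. The 7 neuron and 7 astrocyte markers summed to 432 and 109 in replicate 10 and to 76.0 and 135 in replicate 11, and naive libraries held up to 116 and 112. The astrocyte gene Gfap and the microglia gene P2ry12 were listed at 0 in all libraries. Neutrophil markers summed to 0 to 6525 in naive and 0 to 8121 in brain-recovered libraries, erythroid markers to 10.3 to 53.3 and 0 to 2315, and lymphocyte markers to 0 to 135 and 0 to 26333, with both of the last highest in replicate 6. Of the lymphocyte sum in replicate 6, 26281 came from Trac alone, with Cd3e and Cd79a listed at 0, and in replicate 11 the sum was 191. The part of such cells in the transcription factor values was not tested.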

How the data were processed

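The authors deposited 1 table with a value per entry and library, whose header names no unit. Trimmomatic 0.32 and GRCm38 are named per the submitters' processing notes. For the aligner, the counter and the annotation, nothing is given in the sources used here. Per the labels' protocols, cDNA was amplified from lysate with a low-input kit, which can drop or over-amplify rare transcripts. The deposited values were read as reads scaled by gene length, called RPKM here. All 24388 entries above 0 gave whole reads for 1 length per entry and 1 constant per library (tolerance 0.004 of a read). That constant did not fall as the recovered reads rose, so the scaling between libraries is not known to be that of RPKM. No counting interval is given, since amplified reads do not stand for independent molecules.

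That length was compared with exon lengths in GENCODE M21. Of 21538 entries above 0 in at least 4 libraries, 10146 matched exactly. A label was also kept within 1% of the length, or with matches within 3 places on both sides in alphabetical order. The rule was made with the values in view. Reads are given for the smallest fitting length.

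The test was limma 3.58.1 (R 4.3.3) on log2(value + 1) (eBayes with a trend), over the 17689 entries that reached 1 in 6 or more libraries. The prior weight was infinite, so each SE comes from entries of like abundance. The steps were tested on simulated data. The members and lists were chosen with earlier results of these data known. All members with a usable label are named, and of the other lists the 2 genes of smallest p in each, any that passed, and Fli1 and Lyl1. A progenitor marker is not reported here. Python 3.11.15 was used for the other steps.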

Additional observations from a re-analysis of the deposited data

Results flagged for a closer look

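In 6 of the 18 groups of 6 values formed by the 9 factors, 1 library lay far from the other 5 by Dixon's 95% criterion. For normally distributed values chance gives about 1 in 20 such groups, and values on a linear scale, as here, are skewed. With the other named genes below included, 13 of 32 groups were flagged. The share over all entries was not computed, so the count does not set the factors apart from other genes. In brain-recovered cells these were Gfi1 at 2451 in replicate 10, Myb at 1335 and Runx1 at 74.6 in replicate 11, and Gata2 at 48.1 in replicate 12. In naive cells they were Gata2 at 18.0 in replicate 2 and Tal1 at 15.1 in replicate 9, both below the highest olfactory receptor value of their library.

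Among the other named genes the same held for Tcf4 at 3655 in brain-recovered replicate 6, Cbfb at 8738 and Egr1 at 73.1 in replicate 10, and Gfi1b at 133 in replicate 12. In naive cells it held for Cbfb at 55.3 in replicate 2, Fli1 at 48.7 in replicate 1 and Gfi1b at 13.7 in replicate 9.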

How the results depend on the processing

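Over 27 alternatives, 1 of 228 values of the 9 factors passed the threshold, that of Erg in libraries 1 to 6 alone. Gfi1 and Myb kept a positive difference in every alternative that tested them (0.58 to 3.03 and 0.56 to 2.63), and Hlf changed sign in 10 of 26. Scaling to library totals moved the median of all entries from 0.64 to -0.28 and gave Gata2, Hlf, Runx1, Tal1 and Erg a lower mean in brain-recovered cells. The median difference of the 9 factors was 0.19 to 0.87 with 1 library left out, -0.63 with library totals, -0.05 without the sparse libraries, -0.88 in libraries 7 to 12 alone and 1.72 in libraries 1 to 6 alone. The count of called entries, 65, was 36 to 226 with 1 library left out (36 without naive replicate 8, 39 without naive replicate 1 or brain-recovered replicate 11, 40 without naive replicate 9 or brain-recovered replicate 5, 41 without brain-recovered replicate 6, and 226 without replicate 12). It was 0 with a pseudocount of 10, scaling to library totals, libraries 7 to 12 alone, no sparse libraries, or the exact permutation test (876 higher and 56 lower, 196 and 381, 181 and 825, 458 and 249, and 731 and 41 at an unadjusted p below 0.05, in that order). It was 16 with quantile normalization, 33 with a filter of at least 10, 115 without the variance trend, 23 in entries of exact length only and 6011 in libraries 1 to 6 alone, where 1 factor passed. The cause was not tested. No paired analysis was possible because the groups share no replicate number. Values on few reads limit precision: 11 of the 81 above 0 rest on fewer than 10 reads.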
